A study of Mus musculus with 4 samples.

Results

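The genes described here come from a fixed list of symbols, chosen with earlier results of these data known. They are 31 genes that type I interferon induces in mouse cells. Of these, 29 were found among the 32285 genes of the count tables, and Mx1 and Mx2 were not analysed here. The 29 members comprised 13 antiviral effectors, 5 genes of the 2-5A synthetase family, 3 signalling factors, 2 genes that restrain signalling and 6 sensors of foreign nucleic acid. A core of 26 members, the 29 without Ifitm3, Bst2 and Ifi27l2a, which most leukocytes express, was used for sums and for counts of members per cell.

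The cells came from brains of female C57BL/6 mice that carried intracranial tumours of EO771, a mouse mammary carcinoma line made to express GFP. SCDi mice received an SCD inhibitor for 14 days and control mice received the vehicle for the same time. SCD is stearoyl-CoA desaturase, which makes monounsaturated fatty acids, and neither the compound's name nor its dose was given in the sources used here. Brains of 3 mice were pooled for each treatment and sorted into DAPI-/CD45-/GFP+ tumour cells and DAPI-/CD45+/GFP- immune cells. Each of the 4 sorted pools gave 1 library of 3' single-cell RNA counts, so no difference between treatments could be tested across animals. Every interval below is a 95% interval for counting error and does not hold the spread between mice. Transplanted EO771 tumours start from an established line, and the host mice had an intact immune system.

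Type I interferons, the interferon alpha family and interferon beta, are released by cells that sense foreign or misplaced nucleic acid. They bind the receptor pair Ifnar1 and Ifnar2 and act through the kinases Jak1 and Tyk2. The complex ISGF3, which holds Stat2 and Irf9, then binds the interferon-stimulated response element (ISRE) in the promoters of the induced genes. Irf7, itself induced, amplifies the response, while Usp18 damps it at the receptor. In tumours, dendritic cells and macrophages are known to respond to type I interferon, and cancer cells can respond too.

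Promoter sequence was available for 23 of the 29 members, as windows that run from 250 bases before to 50 bases after the start site (RefSeq, build GRCm38.p6). The ISRE-like word GAAANNGAAA, searched on both strands with overlapping matches counted, was present for 15 of the 23 members (65.22%), against 1079 of 27025 genes (3.993%). The 6 windows below are those of members that carry the results: Isg15, the core member with the most UMIs in tumour cells, Ifit1 and Ifit3, neighbours whose tumour levels lay far apart, Rsad2 and Ifi213, which were the members furthest apart between the treatments in tumour cells, and Oas1a, which was higher with SCDi in all 10 cell types that could be compared. Capitals mark the matches, and TTTCNNTTTC is the same word on the opposite strand.

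Windows are printed 5' to 3' on the strand of the gene, at chr4:156200769-156201068, minus strand (Isg15), chr19:34640639-34640938, plus strand (Ifit1), chr19:34583279-34583578, plus strand (Ifit3), chr12:26456403-26456702, minus strand (Rsad2), chr5:120907476-120907775, minus strand (Oas1a) and chr1:173599223-173599522, minus strand (Ifi213).
Isg15: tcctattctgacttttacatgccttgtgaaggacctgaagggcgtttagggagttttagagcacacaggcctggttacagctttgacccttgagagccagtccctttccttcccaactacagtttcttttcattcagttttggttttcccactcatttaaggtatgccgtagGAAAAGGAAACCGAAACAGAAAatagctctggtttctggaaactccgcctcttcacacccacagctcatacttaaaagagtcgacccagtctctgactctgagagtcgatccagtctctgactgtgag
Ifit1: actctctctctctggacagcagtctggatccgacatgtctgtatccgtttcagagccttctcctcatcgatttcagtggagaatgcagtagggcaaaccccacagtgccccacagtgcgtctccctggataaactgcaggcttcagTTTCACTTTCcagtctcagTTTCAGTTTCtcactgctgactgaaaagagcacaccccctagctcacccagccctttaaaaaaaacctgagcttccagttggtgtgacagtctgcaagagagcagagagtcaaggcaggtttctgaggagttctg
Ifit3: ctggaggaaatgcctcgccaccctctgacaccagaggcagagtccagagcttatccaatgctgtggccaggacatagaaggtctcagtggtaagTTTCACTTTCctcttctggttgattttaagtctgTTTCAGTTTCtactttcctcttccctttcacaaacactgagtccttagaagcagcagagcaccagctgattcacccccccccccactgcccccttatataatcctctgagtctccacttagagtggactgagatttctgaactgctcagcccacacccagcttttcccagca
Rsad2: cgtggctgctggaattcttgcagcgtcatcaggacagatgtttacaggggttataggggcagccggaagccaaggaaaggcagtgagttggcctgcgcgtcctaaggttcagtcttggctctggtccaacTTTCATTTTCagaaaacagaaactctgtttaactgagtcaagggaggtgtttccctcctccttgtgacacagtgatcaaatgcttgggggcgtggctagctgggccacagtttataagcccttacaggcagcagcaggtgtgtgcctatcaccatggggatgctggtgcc
Oas1a: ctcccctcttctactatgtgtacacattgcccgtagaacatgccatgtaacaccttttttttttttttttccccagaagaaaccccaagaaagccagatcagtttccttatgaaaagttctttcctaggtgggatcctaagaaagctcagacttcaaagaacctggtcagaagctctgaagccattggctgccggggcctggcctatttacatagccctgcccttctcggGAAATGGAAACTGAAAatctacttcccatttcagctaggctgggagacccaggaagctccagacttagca
Ifi213: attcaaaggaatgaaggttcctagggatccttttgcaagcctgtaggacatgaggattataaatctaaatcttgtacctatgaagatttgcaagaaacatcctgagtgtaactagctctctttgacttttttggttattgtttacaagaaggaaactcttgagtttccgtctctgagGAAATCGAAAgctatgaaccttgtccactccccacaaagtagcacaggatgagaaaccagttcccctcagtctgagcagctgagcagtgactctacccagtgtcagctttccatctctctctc

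The first matched base lay 78 bases before the start site in Isg15, where 3 matches overlap, and 20 bases before it in Oas1a, where 2 overlap. Ifit1 and Ifit3 each had 2 matches, the first at 104 bases before the start in Ifit1 and at 156 in Ifit3, and the words themselves were the same in both genes. Rsad2 had 1 match, 120 bases before the start, and Ifi213 had 1, 73 bases before it. No match was found in the windows of Ifi44, Oasl1, Oasl2, Irf7, Xaf1, Cmpk2, Irf9 and Ifit2, which says only that these letters are not in those windows. The members are clustered in the genome: Ifit2, Ifit3, Ifit1bl1, Ifit3b and Ifit1 lie within chr19:34550694-34650009, Rsad2 and Cmpk2 lie side by side within chr12:26442746-26479837, and Ifi213 and Ifi204 lie within chr1:173566283-173766943.

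The immune libraries held 6777 barcodes (SCDi) and 7332 barcodes (vehicle), and the tumour libraries 9034 and 7713. Median depth was 16548 UMIs (SCDi) and 15293.5 UMIs (vehicle) per immune barcode, and 36680.5 and 41124.0 UMIs per tumour barcode. Libraries shared 9 to 23 barcode sequences with each other, at most 0.3137% of a library. Cells were typed by marker gates that hold none of the members, and 13 types had at least 50 cells in both libraries. The gated tumour cells had 1417 CPM (SCDi) and 1502 CPM (vehicle) of the 6 epithelial markers, and 0.411 and 0.482 CPM of the 4 leukocyte markers, of which the gate allowed at most 1 per cell. CPM here means UMIs of a gene, summed over the cells of a type, per 1000000 UMIs of that type.

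The summed core was higher in every leukocyte type compared than in the tumour cells, though not each member was: Bst2 was at 234.0 CPM in SCDi B cells and 672 CPM in SCDi tumour cells. The summed core level was 10797 CPM in monocytes of both treatments, and 487 CPM (SCDi) and 489 CPM (vehicle) in tumour cells. Between these ends, the SCDi levels ran from macrophages with monocyte markers (10397 CPM) through Ace and Treml4 monocytes (7207 CPM), macrophages (6785 CPM), cDC2 (6366 CPM), migratory dendritic cells (3641 CPM), microglia (2815 CPM), plasmacytoid dendritic cells (2776 CPM), NK cells (2162 CPM), CD8 T cells (1619 CPM) and B cells (1551 CPM) to regulatory T cells (1497 CPM). The vehicle order differed in 2 places: cDC2 (5764 CPM) stood above macrophages (5393 CPM), and regulatory T cells (1819 CPM) stood above CD8 T cells (1785 CPM) and B cells (937 CPM), level with NK cells (1821.5 CPM). Microglia and plasmacytoid dendritic cells lay close together in both treatments, as did CD8 and regulatory T cells.

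Free RNA from macrophages was gauged in lymphocytes with macrophage genes. The complement genes C1qa, C1qb and C1qc, which macrophages make and lymphocytes do not, reached 1.58% to 4.30% (SCDi) and 1.68% to 2.80% (vehicle) of their macrophage level in the 4 lymphoid types compared. The summed core members reached 22.1% to 31.9% (SCDi) and 17.4% to 33.8% (vehicle) of theirs. The C1q genes are among the macrophage gate markers, and lymphocytes that passed that gate were left out, which can hold their values low. Monocytes had 2.49% (SCDi) and 1.99% (vehicle) of the macrophage C1q level, so these genes cannot gauge free RNA from monocytes. The part of free RNA in the lymphocyte levels was not tested.

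Cells were also scored one by one. Each was thinned to 5000 UMIs, and a cell with a UMI of at least 5 of the 26 core members was called strongly positive. In tumour cells, 9.81% of 7129 SCDi cells (9.12 to 10.5) and 10.5% of 6278 vehicle cells (9.78 to 11.3) were strongly positive. The intervals overlap. In macrophages 93.2% of 1818 SCDi cells (92.0 to 94.3) and 85.4% of 1690 vehicle cells (83.6 to 87.0) passed, and in monocytes 92.6% of 1078 (90.8 to 94.1) and 92.9% of 997 (91.1 to 94.4). Without thinning, 54.3% (SCDi) and 58.4% (vehicle) of tumour cells and 99.3% and 97.1% of macrophages passed, so this share was higher at greater depth.

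**Figure D1:**
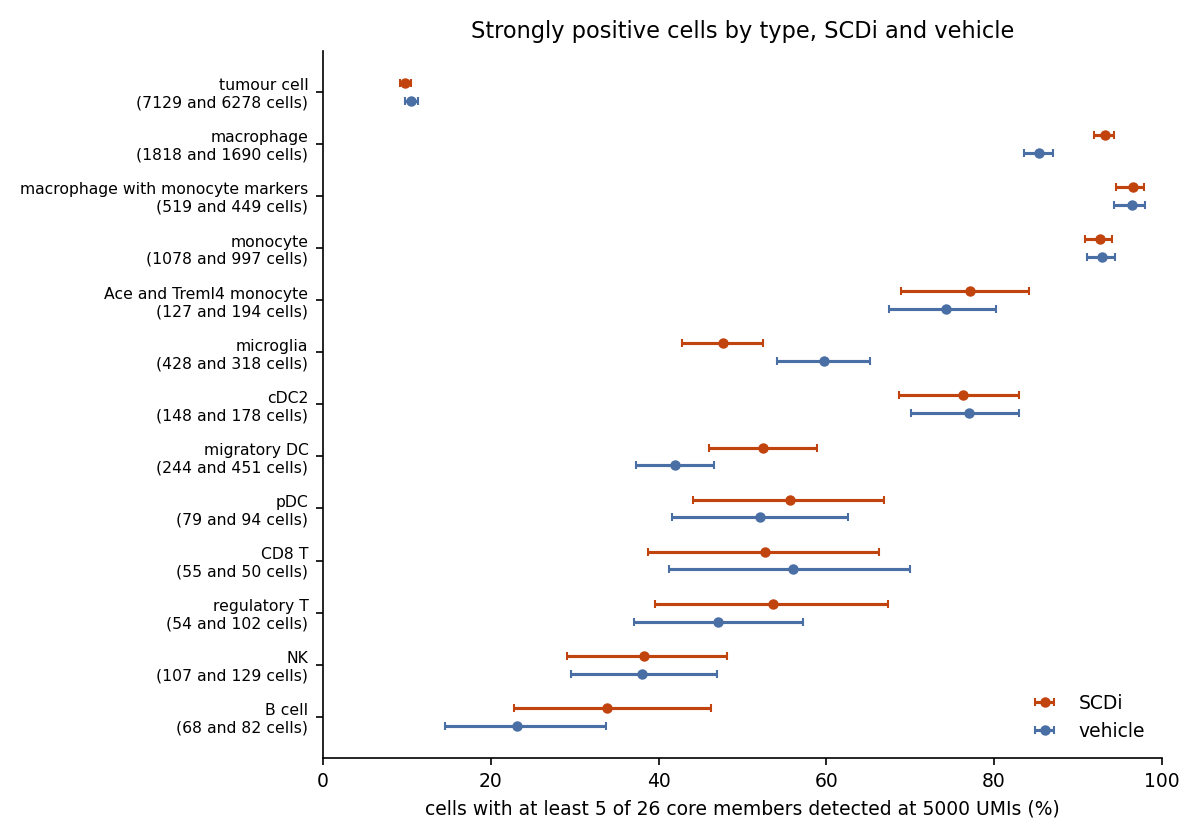
Share of strongly positive cells (at least 5 of 26 core members with a UMI at 5000 UMIs) in each type, SCDi above vehicle, with exact 95% intervals for counting error. The intervals lay apart in macrophages, higher with SCDi, and in microglia, lower with SCDi, and overlapped in every other type. Among those, migratory dendritic cells (52.5% and 41.9%) and B cells (33.8% and 23.2%) were higher with SCDi, and tumour cells stayed near 10% in both libraries.

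Tumour cells of the 2 treatments had the same summed core level within counting error. It was 486.9 CPM with SCDi and 489.4 CPM with vehicle, a log2 ratio of -0.0073 (-0.018 to 0.0035). With all members, Bst2, Ifitm3 and Ifi27l2a included, the log2 ratio was -0.12. Of the 28 members with at least 50 UMIs over both libraries, 15 were higher with SCDi and 13 lower. Among all genes tested, 45.47% were higher. Past 1.5-fold, 1 member was higher and 0 lower, against 4.71% of all 15567 genes tested higher and 3.42% lower. The median log2 ratio was 0.01 over the members and -0.02 over all genes. The direction of the strongly positive share was not stable: its log2 ratio was -0.10 as reported, -0.29 when cells were thinned to 2000 UMIs and 0.092 at 10000 UMIs.

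Among the tumour effectors, the members moved in both directions. Isg15, the ubiquitin-like protein that is conjugated to new proteins during the response, was at 112 CPM with SCDi and 97.9 CPM with vehicle (log2 ratio 0.20, 0.18 to 0.22). Rsad2, or viperin, which makes a chain-terminating nucleotide, was at 43.2 CPM with SCDi and 62.0 CPM with vehicle (-0.52, -0.55 to -0.49). The share of tumour cells with an Rsad2 UMI at 5000 UMIs was 9.02% and 9.49%, a much smaller gap than that of the level. Its neighbour Cmpk2, a nucleotide kinase, showed no such difference, with 10.1 CPM (SCDi) and 9.69 CPM (vehicle). Bst2, or tetherin, which holds budding virus at the membrane, was at 672 CPM with SCDi and 822 CPM with vehicle (-0.29). It lies on chromosome 8, whose genes had a median log2 ratio of -0.13 in tumour cells, and relative to that median its ratio was -0.16. Ifitm3, which blocks virus entry, was at 814 and 836 CPM (-0.04). Ifit1, which binds foreign RNA, was at 31.8 CPM with SCDi and 30.96 CPM with vehicle (0.04, -0.0053 to 0.08). Xaf1, a partner of the apoptosis inhibitor XIAP, was at 22.3 and 21.5 CPM, and Ifi44 at 13.5 and 13.3 CPM. Ifi27l2a was at 9.78 CPM with SCDi and 11.1 CPM with vehicle (-0.18).

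**Figure D2:**
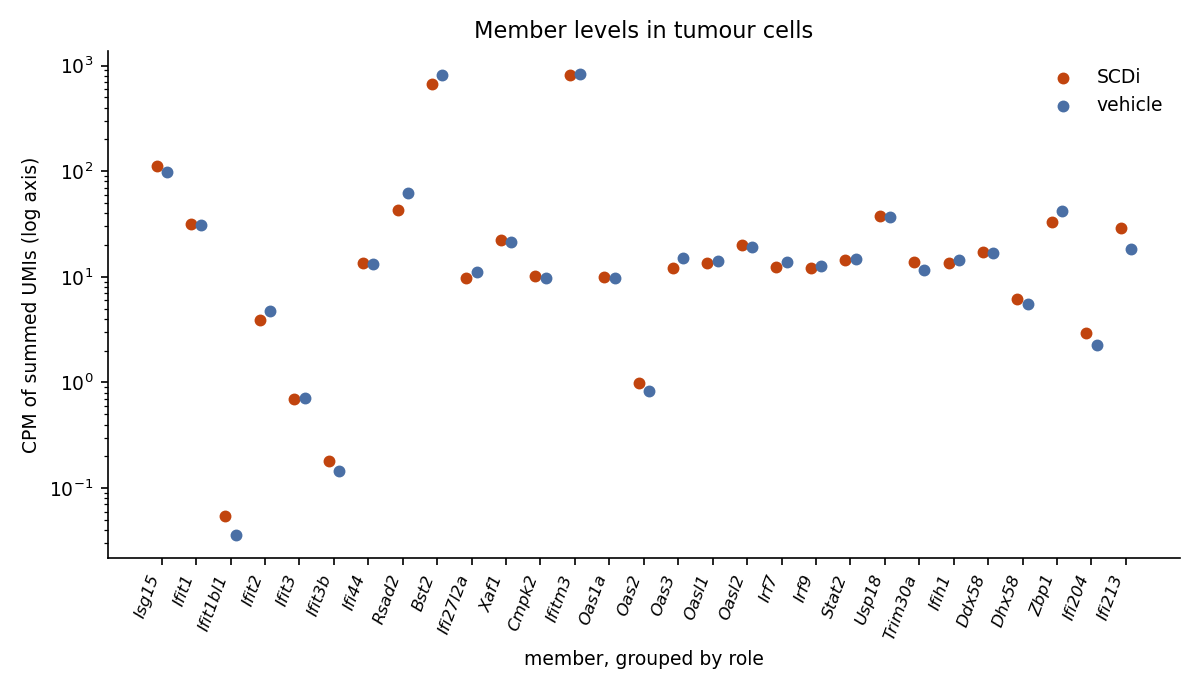
Level of each of the 29 members in tumour cells of the SCDi library (left point of each pair) and the vehicle library (right point), as CPM of summed UMIs on a log axis. The paired points nearly coincide for most members, while Ifit3, Ifit3b, Ifit1bl1 and Oas2 stand below 1 CPM in both libraries.

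The other groups showed the same mixture in tumour cells. Of the 2-5A synthetase family, whose Oas1a, Oas2 and Oas3 products make the 2-5A that activates RNase L, Oas3 was at 12.05 CPM with SCDi and 15.1 CPM with vehicle (-0.33), Oas1a at 9.92 and 9.86 CPM (0.01), Oasl1 at 13.7 and 14.3 CPM (-0.06) and Oasl2 at 20.2 and 19.1 CPM (0.08). Oas2 was at 0.999 CPM with SCDi and 0.832 CPM with vehicle. The signalling factors Irf7 (12.3 and 13.8 CPM), Irf9 (12.1 and 12.6 CPM) and Stat2 (14.4 and 14.9 CPM) were all slightly lower with SCDi, with log2 ratios of -0.17, -0.06 and -0.05. Usp18, which removes Isg15 from proteins and blocks the receptor, was at 37.8 and 37.0 CPM (0.03). Trim30a, a restraint on inflammatory signalling in mouse cells, was at 13.7 and 11.6 CPM (0.24).

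The sensors held the member with the largest ratio above 0. Ifi213, a member of the Ifi200 family, was at 28.8 CPM with SCDi and 18.4 CPM with vehicle (log2 ratio 0.64, 0.59 to 0.69), the 1 member past 1.5-fold. It was detected in 13.03% of SCDi and 8.46% of vehicle tumour cells at 5000 UMIs. Ifi204, a DNA sensor of the same family, was at 2.95 and 2.25 CPM (0.39, 0.24 to 0.54). Zbp1, which binds Z-form nucleic acid, was at 33.4 CPM with SCDi and 41.8 CPM with vehicle (-0.33, -0.36 to -0.29). The RNA sensors Ddx58 (RIG-I), Ifih1 (MDA5) and Dhx58 (LGP2) had log2 ratios of 0.02, -0.10 and 0.15. Ifi213 and Ifi204 share transcript sequence with family members, 17.4% of the 60-base words of Ifi213 with Ifi208 and 20.7% of those of Ifi204 with Ifi211, so reads could be assigned among them. The sum of Ifi213 and Ifi208 had a log2 ratio of 0.65 (0.60 to 0.70).

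By description only, since the cells were split on the members themselves, the strongly positive tumour cells held 44.0% of the core UMIs with SCDi and 50.7% with vehicle, in 9.81% and 10.5% of the cells. Their own core level was 2303 CPM with SCDi and 2551 CPM with vehicle, and that of the remaining tumour cells was 300.2 CPM with SCDi and 267.8 CPM with vehicle. A cell's members were found together: of tumour cells with an Ifit1 UMI, 54.2% (SCDi) and 62.8% (vehicle) had at least 5 other core members, against 5.08% and 5.90% of cells without one. Ifi213 stood apart, since 9.58% of its SCDi cells (7.76 to 11.7) and 10.2% of its vehicle cells (7.73 to 13.1) had 5 other core members, against 9.23% and 10.2% of cells without it. Over the 22 core members seen in at least 50 tumour cells, that share ran from 9.58% (Ifi213) to 54.2% (Ifit1) with SCDi and from 10.2% (Ifi213) to 64.0% (Cmpk2) with vehicle. Strong positivity was similar in tumour cells with a UMI of the cycle genes Mki67 or Top2a (9.95% SCDi, 10.8% vehicle) and in those without (8.46% and 9.25%).

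**Figure D3:**
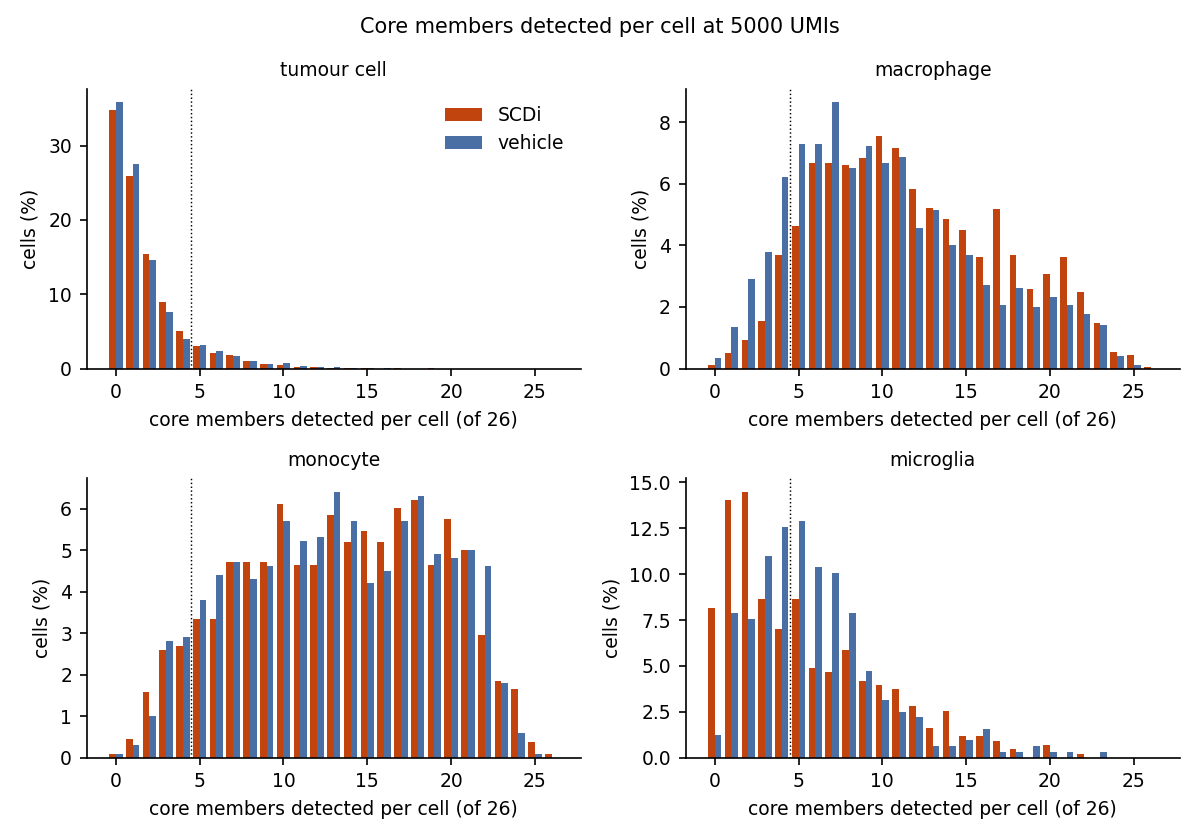
Number of core members (of 26) with a UMI per cell at 5000 UMIs, as percent of cells, for tumour cells, macrophages, monocytes and microglia, SCDi bars left of vehicle bars. The dotted line marks the threshold for strongly positive cells; macrophages with SCDi lie further right (median 11 against 9), and more of the SCDi microglia have 0 to 2 members.

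A group of Ifit genes on chromosome 19 was nearly silent in the tumour cells. Ifit3 was at 0.698 CPM in SCDi tumour cells (204 UMIs) and 0.709 CPM in vehicle tumour cells (197 UMIs), Ifit3b at 0.181 and 0.144 CPM, and Ifit1bl1 at 0.0547 and 0.0360 CPM (16 and 10 UMIs, under the minimum for a ratio). Macrophages had 361.9 CPM of Ifit3 with SCDi and 271.6 CPM with vehicle. The macrophage level of Ifit3 was thus 518-fold (SCDi) and 383-fold (vehicle) its tumour level, and that of Ifit1bl1 1426-fold and 1746-fold. For Ifit1, from the same cluster, the same folds were 7.57 and 6.09, for Isg15 12.5 and 10.7, and for Usp18 3.05 and 2.35. Ifit2 stood between, at 3.89 CPM in SCDi and 4.74 CPM in vehicle tumour cells, 72.2-fold and 44.0-fold below macrophages. Of tumour cells with an Ifit3 UMI, 76.2% of 21 (SCDi) and 90.5% of 21 (vehicle) had at least 5 other core members. Ifit3 and Ifit3b share 47.0% of the words of Ifit3, and reads that fit both could not be placed on either, but their sum was also low, at 0.879 CPM (SCDi) and 0.853 CPM (vehicle).

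**Figure D4:**
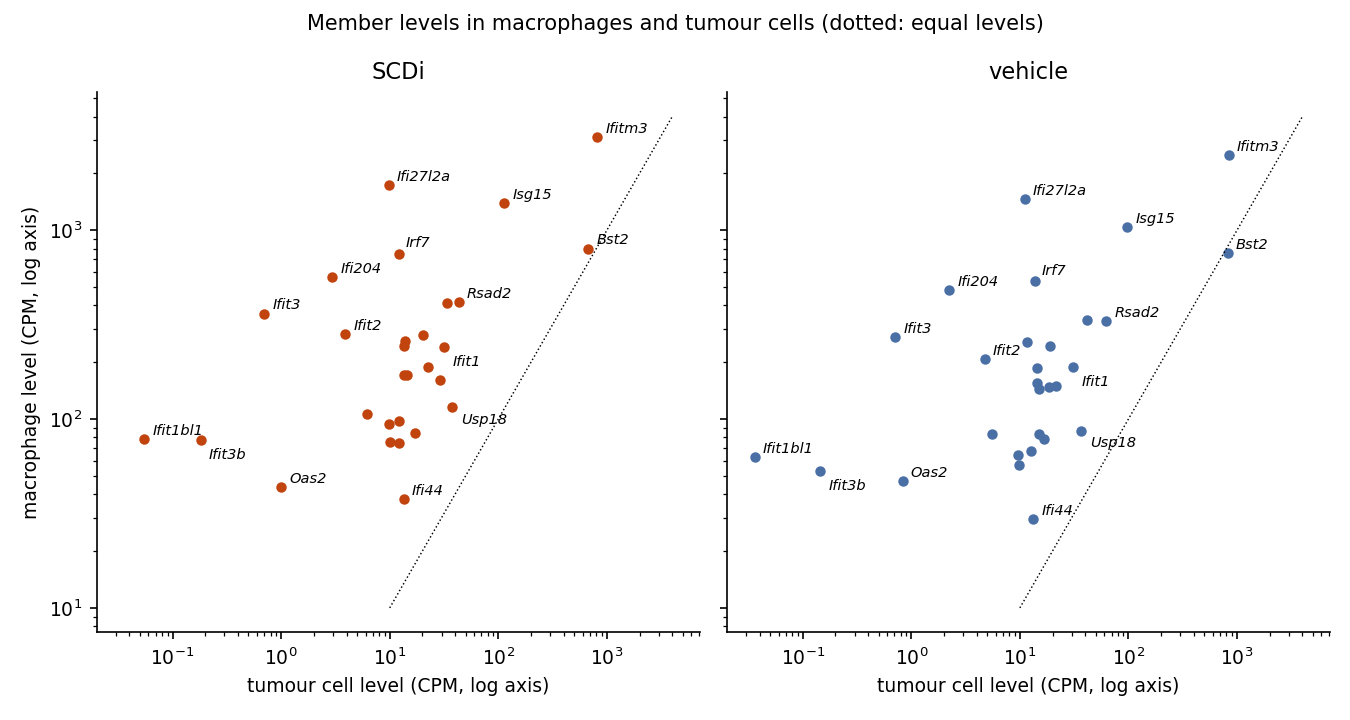
Level of each member in macrophages (vertical, CPM, log axis) against its level in tumour cells (horizontal, CPM, log axis), in the SCDi libraries (left) and the vehicle libraries (right). Bst2 lies at the dotted line of equal levels, while Ifit1bl1, Ifit3 and Ifit3b lie at the far left in both panels.

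Macrophages showed a modest and broad increase with SCDi. Their summed core level was 6785 CPM with SCDi and 5393 CPM with vehicle, a log2 ratio of 0.33 (0.32 to 0.34), and 28 of the 29 members were higher. Among all genes tested in macrophages, 43.54% were higher. The median log2 ratio of the members was 0.31, against -0.04 for all genes. Past 1.5-fold, 1 member was higher and 0 lower, against 2.05% and 6.38% of all 12210 genes, so the difference was spread over many members and small in each. The 10 macrophage markers, by which these cells were gated, summed to 20929.7 CPM (SCDi) and 23952.9 CPM (vehicle). The 9 monocyte markers summed to 545 and 656 CPM.

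Among macrophage effectors, Isg15 was at 1399 CPM with SCDi and 1044 CPM with vehicle (0.42, 0.40 to 0.44) and was detected in 86.0% and 75.9% of cells at 5000 UMIs. Ifit3 had a log2 ratio of 0.41 (0.38 to 0.45), Ifit2 0.43, Ifit1 0.35, Ifit1bl1 0.31 and Ifit3b 0.54. Rsad2, which was lower with SCDi in tumour cells, was at 416.7 CPM with SCDi and 329.3 CPM with vehicle in macrophages (0.34, 0.31 to 0.37). Ifitm3 was at 3124 and 2509 CPM (0.32), Ifi27l2a at 1735 and 1466 CPM (0.24) and Bst2 at 800.0 and 759.5 CPM (0.07). Xaf1, Cmpk2 and Ifi44 had log2 ratios of 0.33, 0.24 and 0.36. All 13 effectors were thus higher, with Ifit3b the furthest apart and Bst2 the least.

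Oas1a was the member with the largest ratio in macrophages, at 94.4 CPM with SCDi and 56.9 CPM with vehicle (0.73, 0.65 to 0.81). It shares 52.9% of its words with Oas1g, and the sum of both genes was at 124.2 and 74.2 CPM (0.74, 0.67 to 0.81). Oas2, from the same family, was the 1 member that was lower, at 43.7 CPM with SCDi and 47.1 CPM with vehicle (-0.11, -0.21 to -0.01). Oas3, Oasl1 and Oasl2 had log2 ratios of 0.23, 0.38 and 0.19. Irf7, the factor that amplifies the response, was at 751.2 CPM with SCDi and 539.8 CPM with vehicle (0.48, 0.45 to 0.50), ahead of Stat2 (0.24) and Irf9 (0.14). Of the restraint genes, Usp18 was at 115.2 and 86.8 CPM (0.41), while Trim30a was at 260.2 and 254.4 CPM (0.03). The sensors ranged from Ddx58 (0.11) and Ifi213 (0.12) through Ifih1 (0.15) and Ifi204 (0.22) to Zbp1 (0.31) and Dhx58 (0.34).

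Monocytes had the highest levels and no difference in sum. The core stood at 10797 CPM in both treatments, with a log2 ratio of -8.5e-05 (-0.0098 to 0.0096). Of the 29 members 19 were higher and 10 lower, where 50.18% of all genes were higher. Past 1.5-fold, 1 was higher and 0 lower, against 2.45% and 2.49% of all genes. That member was Ifit3b, at 102.0 CPM with SCDi and 58.0 CPM with vehicle (0.81, 0.70 to 0.93), and with Ifit3 the sum was at 615.0 and 495.9 CPM (0.31). Oas1a (0.47) and Irf7 (0.30) were higher here as in macrophages, at 132.9 and 95.98 CPM and at 767.7 and 623.7 CPM. Oas2 (-0.32), Trim30a (-0.25) and Ifi213 (-0.25) were lower, with Ifi213 at 285.8 CPM (SCDi) and 340.7 CPM (vehicle). Isg15 was at 2415 CPM with SCDi and 2524 CPM with vehicle (-0.06), Ifitm3 at 6154 and 6091 CPM (0.01), and Rsad2 at 762.1 and 775.0 CPM (-0.02).

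The core ratios of the other myeloid cells, at the main settings, lay between those of macrophages and monocytes. Their counts of members past 1.5-fold did not always. Macrophages with monocyte markers had a core log2 ratio of 0.10 (0.09 to 0.11), with 24 of 29 members higher (48.11% of all genes). Ifit3b (0.63) was the 1 member past 1.5-fold higher, and 0 were lower (2.7% and 3.89% of all genes). Summed with Ifit3, Ifit3b had a ratio of 0.32. Under a stricter marker gate the core ratio was -0.026. The gate named Ace and Treml4 monocytes asked for a UMI of each of these genes of non-classical monocytes, and for no other monocyte marker. Its macrophage markers summed to 6161 CPM (SCDi) and 5294 CPM (vehicle), above its monocyte markers (3507 and 4277 CPM). The core was at 7207 CPM with SCDi and 5915 CPM with vehicle (0.29, 0.26 to 0.31), or 0.17 with all members. Past 1.5-fold, 0 of 29 members were lower (3.19% of all genes) and 7 higher (5.08%): Ifit3b, Ifit1bl1, Ifi44, Ifit3, Oas1a, Cmpk2 and Irf7. In this gate the C1q genes, a macrophage marker, were also higher, at 2125 CPM with SCDi and 783.7 CPM with vehicle, and the part of such cells in the result was not tested. In cDC2 the core ratio was 0.14, with Oas1a and Irf7 past 1.5-fold (2 of 29 members higher and 0 lower, against 7.48% and 6.14% of all genes). Scaled by the median of ratios, 0 members passed, and the core ratio was 0.34 under a stricter gate and 0.069 with all members.

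Microglia, the resident macrophages of the brain, differed in shape more than in sum. Fewer were strongly positive with SCDi, 47.7% of 428 cells (42.8 to 52.5) against 59.7% of 318 vehicle cells (54.1 to 65.2). None of the core members was detected in 8.18% of SCDi and 1.26% of vehicle microglia. Yet 29.4% of SCDi and 26.4% of vehicle microglia had at least 8 core members, and the CPM of all UMIs was higher with SCDi, at 2815 CPM against 2586 CPM with vehicle (0.12, 0.10 to 0.15). The mean of the cells' own CPM gave -0.24, and at 5000 UMIs a cell held 9.61 core UMIs on average with SCDi and 10.9 with vehicle. Of the 29 members 21 were higher and 8 lower, where 45.35% of all genes were higher. Oas1a (0.70) was the 1 member past 1.5-fold higher, and 0 were lower (2.26% and 2.86% of all genes). Irf7 was at 200.6 CPM with SCDi and 144.2 CPM with vehicle (0.48), and Stat2 at 77.8 and 96.6 CPM (-0.31). Isg15 was detected at 5000 UMIs in 44.4% of SCDi and 56.3% of vehicle microglia although its level was 441.9 and 391.3 CPM. Median depth was 15095 UMIs with SCDi and 20128.5 UMIs with vehicle, and the 8 microglia markers summed to 3949 and 3373 CPM; the part of either in the result was not tested.

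Migratory dendritic cells, the Ccr7-positive cells that carry antigen to lymph nodes, had 11 members past 1.5-fold, the highest count among the 13 types compared, though 9 of 22 in B cells is a larger share. All 29 members were higher with SCDi (40.78% of all genes were), and the 11 past 1.5-fold higher stand against 3.35% of all 8559 genes, with 0 past it lower (5.46% of all genes). The core was at 3641 CPM with SCDi and 2941 CPM with vehicle (0.31, 0.28 to 0.34), and 52.5% of 244 SCDi cells (46.0 to 58.9) and 41.9% of 451 vehicle cells (37.3 to 46.6) were strongly positive, with intervals that just overlap. Under a stricter marker gate the core ratio was 0.15. Ifi44 had the largest ratio, at 23.9 and 7.96 CPM (1.59, 1.07 to 2.12). Ifit3b (1.24), Oas1a (1.02), Oas3 (0.99), Ifit1bl1 (0.84), Ifit2 (0.82) and Ifit3 (0.78) came next, followed by Ifi204 (0.69), Ifi27l2a (0.66), Ifi213 (0.64) and Irf7 (0.60). Isg15, the member with the most UMIs here, was at 1542 and 1373 CPM (0.17), and Irf9 at 66.9 and 66.8 CPM. Plasmacytoid dendritic cells, the classical source of interferon alpha, had 79 SCDi and 96 vehicle cells and a core ratio of 0.23, or -0.0022 with all members and 0.097 without doublet removal. Of their 21 members tested, Ifit1 and Usp18 were past 1.5-fold higher (2 members, against 4.08% of all genes) and Ifitm3 and Ifi213 lower (2 members, against 5.35%). The intervals of Ifit1 and Ifi213 here held 0.

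**Figure D5:**
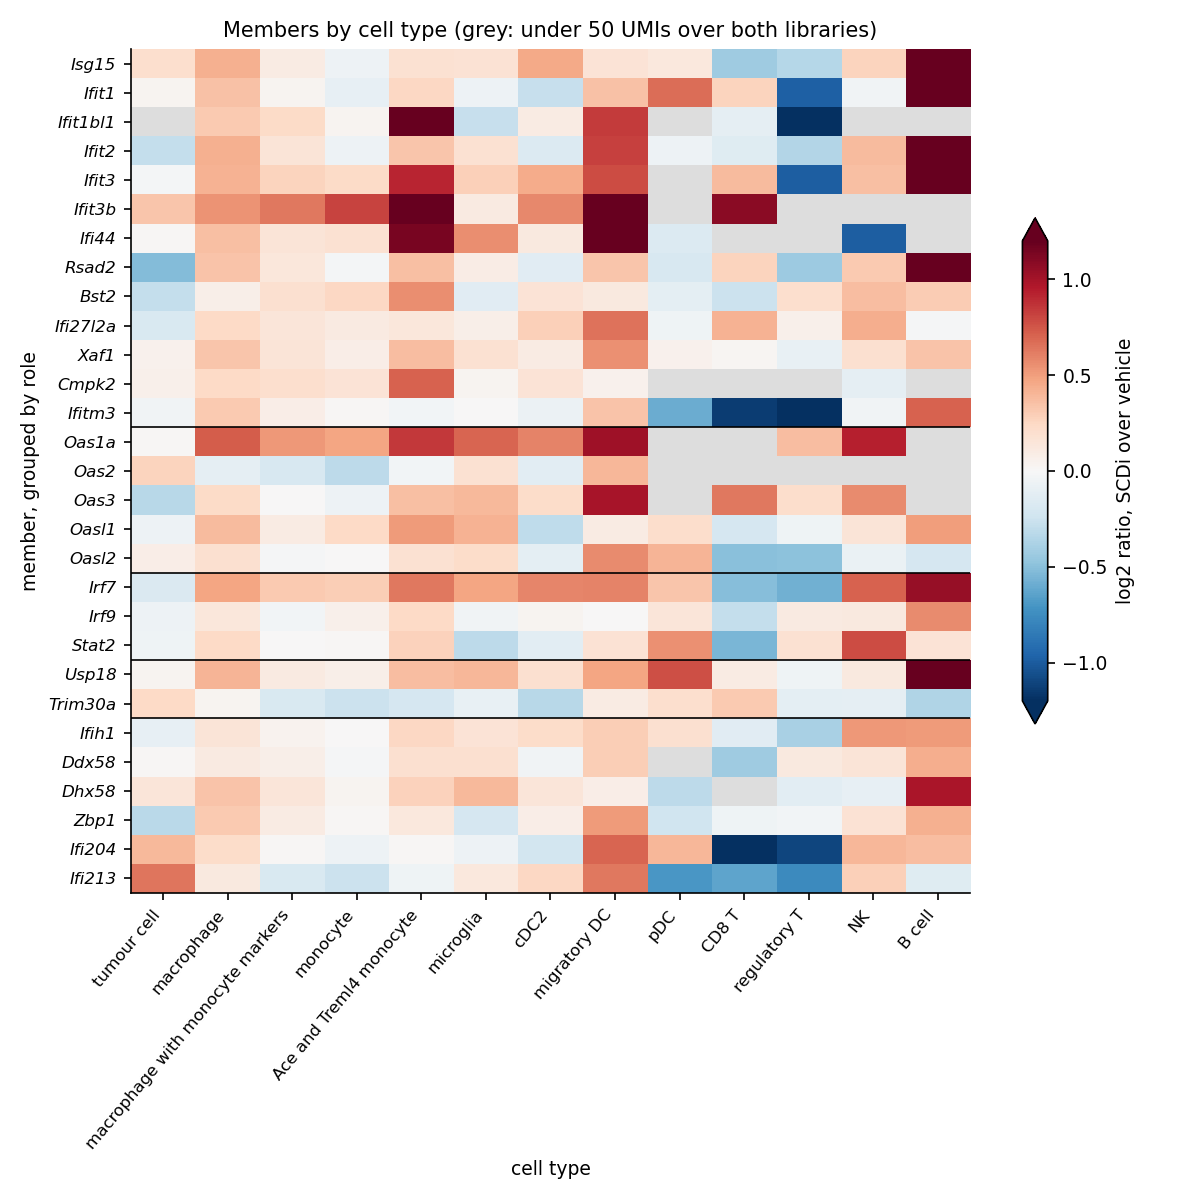
Log2 ratio of SCDi over vehicle for each member (rows, grouped by role with black lines between roles) in each of 13 cell types (columns), red for higher with SCDi and blue for lower; ratios beyond the scale have its end colour. The macrophage and migratory dendritic cell columns are nearly all red, the regulatory T cell column is mostly blue, the Oas1a row is red or near white wherever it was measured, and grey marks members under 50 UMIs.

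Lymphocytes did not share 1 direction, and each type had few cells. Regulatory T cells (55 SCDi and 105 vehicle cells) had 1497 CPM with SCDi and 1819 CPM with vehicle (-0.28, -0.36 to -0.20). The ratio was -0.097 with all members and -0.17 without doublet removal. Monocyte markers in this gate summed to 152 CPM (SCDi) and 264 CPM (vehicle) and cDC2 markers to 0.748 and 39.5 CPM. Migratory dendritic cell markers were higher with SCDi, at 161 and 109 CPM. The part of these markers in the result was not tested. Of the 25 members tested in regulatory T cells, 18 were lower and 7 higher, where 50.69% of all genes were higher. Past 1.5-fold, 0 were higher (8.77% of all genes) and 6 lower (8.24%): Ifit1bl1, Ifitm3, Ifi204, Ifit3, Ifit1 and Ifi213. Ifit1 was at 49.4 CPM with SCDi and 97.2 CPM with vehicle (-0.98). The strongly positive share went the other way, at 53.7% of 54 SCDi and 47.1% of 102 vehicle cells, with overlapping intervals. CD8 T cells (58 and 50 cells) had 1619 and 1784.5 CPM (-0.14, -0.24 to -0.04), and the mean of the cells' own CPM gave 0.21. Macrophage markers in this gate summed to 268 CPM (SCDi) and 428.2 CPM (vehicle), and their part was not tested. Past 1.5-fold, Ifit3b and Oas3 were higher (2 of 24 members, against 9.53% of all genes) and Ifi204, Ifitm3 and Ifi213 lower (3 of 24, against 7.83%). The interval of Oas3 here held 0, and the sum of Ifit3 and Ifit3b had a ratio of 0.49.

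NK cells (150 and 171 cells) had 2162 CPM with SCDi and 1822 CPM with vehicle (0.25, 0.17 to 0.32), and the mean of the cells' own CPM gave 0.019. Past 1.5-fold were Oas1a, Stat2 and Irf7, higher (3 of 26 members, against 4.73% of all genes), and Ifi44, lower (1 of 26, against 4.77%). B cells (97 and 109 cells) had 1551 and 937.0 CPM (0.73, 0.62 to 0.84), or 0.45 with all members. The gated B cells themselves differed: the 6 B cell markers summed to 12281 CPM (SCDi) and 6229 CPM (vehicle), the leukocyte markers to 5424 and 3679 CPM and the monocyte markers to 146 and 286 CPM, and the part of these in the result was not tested. Of their 22 members tested 9 were past 1.5-fold higher (6.58% of all genes) and 0 lower (8.12%). Isg15 was at 321.2 CPM with SCDi (361 UMIs) and 100.6 CPM with vehicle (115 UMIs), while Ifit1 had 50 and 6 UMIs. Strongly positive were 33.8% of 68 SCDi (22.8 to 46.3) and 23.2% of 82 vehicle B cells (14.6 to 33.8), with overlapping intervals.

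CD4 T cells and neutrophils had too few cells to be compared by the same rule, and their values are given for completeness. The 44 SCDi CD4 T cells had 4452 CPM of the core and the 89 vehicle CD4 T cells 1477 CPM. All 24 members with at least 50 UMIs were higher with SCDi, where 41.05% of all genes were, and the C1q genes were also higher, at 460.3 CPM with SCDi and 237.7 CPM with vehicle. The 48 SCDi neutrophils had 7355 CPM and the 66 vehicle neutrophils 8567 CPM. Median depth was 4663 and 3709.5 UMIs, and 18 SCDi and 15 vehicle neutrophils reached 5000 UMIs.

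Across the 13 types, single members ranged more than the sum. The interval of the core ratio lay above 0 in 9 types, below 0 in 2 and held 0 in 2. Oas1a was higher with SCDi in all 10 types in which it had at least 50 UMIs, past 1.5-fold in 6 of them, and its lowest ratio, 0.01, was in tumour cells. Ifit3b was higher in all 9 of its types and past 1.5-fold in 5. Summed with Ifit3, with which it shares sequence, it passed in Ace and Treml4 monocytes (0.99) and migratory dendritic cells (0.88). The sum did not pass in CD8 T cells (0.49), macrophages with monocyte markers (0.32) or monocytes (0.31). Xaf1 and Usp18 were each higher in 12 of 13. Irf7 was higher in 10 of 13 and past 1.5-fold in 5. Trim30a was lower in 8 of 13 types and Oas2 in 5 of 8, neither past 1.5-fold in any. These counts cross types that share the 2 immune libraries and are not independent of each other. No share over all genes was computed across types.

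The other genes of the pathway were read from a list of ligands, receptors and kinases, sensors and adaptors, inhibitors and further induced genes. The 17 type I ligand genes had 13 UMIs in all leukocyte types of the SCDi library and 25 in those of the vehicle library, of which Ifnb1 had 8 and 18. The 13 interferon alpha genes had 0 UMIs in both, so no source of ligand could be compared. With 0 counts, up to 3 UMIs per library cannot be told from none. In tumour cells the ligands had 7 and 8 UMIs.

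In macrophages, 60 of 65 other induced genes tested were higher with SCDi and 5 lower, with 5 past 1.5-fold higher and 0 lower. Of all genes, 43.54% were higher, 2.05% past 1.5-fold higher and 6.38% past it lower. The highest were Oas1g (29.8 and 17.3 CPM, log2 ratio 0.79), the near copy of Oas1a, and Isg20 (109.7 and 67.5 CPM, 0.70), an exonuclease. The lowest were Ifitm1 (196.5 and 234.2 CPM, -0.25) and Ms4a8a (90.02 and 98.6 CPM, -0.13). Among the receptor and kinase genes, Tyk2 was at 30.8 and 31.4 CPM, and Ifnar1 (103.0 and 125.6 CPM, -0.29) and Jak1 (-0.10) were lower. Among sensors and adaptors, Tlr9 (0.59) and Tlr3 (0.38) had the highest ratios and Trim25 (-0.16) and Mavs (-0.08) the lowest. Among inhibitors, Socs1, which blocks Jak kinases, was at 58.5 CPM with SCDi and 42.0 CPM with vehicle (0.48), followed by Samhd1 (0.22), and Socs3 (-0.13) and Ptpn2 (-0.04) were the lowest.

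In tumour cells, 28 of 57 other induced genes tested were higher and 29 lower, where 45.47% of all genes were higher. Of the 57, 7 were past 1.5-fold higher and 1 lower (4.71% and 3.42% of all genes). Of the 7, Ifi203, Ifi205, Ifi208 and Mndal are of the Ifi200 family and were each below 1 CPM. The highest were Ifi208 (43 and 15 UMIs, log2 ratio 1.45) and Mndal (274 and 105 UMIs, 1.31), and the lowest were Cd274, the ligand of PD-1 (4.30 and 6.55 CPM, -0.61), and Psmb9, an immunoproteasome subunit (55.1 and 73.2 CPM, -0.41). Of the receptors, Ifngr1 (0.17) and Ifngr2 (0.06) had the highest ratios and Tyk2 (-0.19) and Ifnar1 (-0.13) the lowest. Socs3 was at 64.6 CPM with SCDi and 41.1 CPM with vehicle (0.65), ahead of Ptpn2 (0.08), and Ptpn6 (-0.44) and Socs1 (-0.15) were the lowest inhibitors. Tmem173, or STING, and Tlr3 had the highest ratios of the sensors (both 0.25), and Ikbke (-0.13) and Trim25 (-0.11) the lowest. In migratory dendritic cells 45 of 56 other induced genes were higher, 16 past 1.5-fold higher and 1 lower, where 40.78% of all genes were higher and 3.35% and 5.46% passed. In regulatory T cells 37 of 58 were lower, 12 past 1.5-fold lower and 3 higher. Of all genes there, 50.69% were higher, and 8.24% passed 1.5-fold lower and 8.77% higher.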

How the data were processed

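The deposited tables hold UMI counts, not normalized, for each gene in each barcode, per the file headers and their whole-number values; per the submitters' processing notes the authors made these counts with Cell Ranger 7.1.0 on mm10. Their gene annotation and treatment of intronic reads: not given in the sources used here. Barcodes with at least 300 genes and at most 15% mitochondrial UMIs were kept, and the highest scores of simulated-neighbour doublets were removed at 0.8% per 1000 barcodes. Types were set by marker gates (for example at least 6 of 10 macrophage markers), cells that passed gates of unlike types were left out, and so were ungated cells. UMIs were summed per type and library and scaled to CPM. The log2 ratio of SCDi over vehicle has the exact conditional binomial 95% interval, and shares have the exact Clopper-Pearson interval. PCR duplicates were collapsed by molecular identifier, and intervals cover counting error only. With 1 library per group, each from 3 pooled mice, there is no residual between samples and no p-value is given. A gene was called at 1.5-fold or more if it had at least 50 UMIs over both libraries. Cells were thinned to 5000 UMIs without replacement.

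All 29 measured members are named, with full values for those with the most UMIs or the largest ratios in tumour cells, macrophages and monocytes, and for other pathway genes the 2 highest and 2 lowest ratios per role; 1 pathway gene is not reported here. The members, lists and markers were chosen with earlier results of these data known. The core was planned as the 31 listed genes without 3 and holds 26, since Mx1 and Mx2 were not analysed here. Gene positions came from GENCODE M21 (GRCm38.p6) by Ensembl ID, which placed 32158 of 32285 genes, and promoter windows came from RefSeq. Python 3.11.15, numpy 2.4.6, scipy 1.17.1, pandas 2.3.3 and scikit-learn 1.9.0 were used, and the ratio and thinning steps were tested on simulated data. Alternatives in thinning depth, member threshold, member list, filters, doublets, gates, scaling, fold and minimum UMIs were computed.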

Additional observations from a re-analysis of the deposited data

Results flagged for a closer look

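The summed core level had a log2 ratio below 0 in CD8 T cells (-0.14, with 58 SCDi and 50 vehicle cells) and in regulatory T cells (-0.28, with 55 SCDi and 105 vehicle cells), while in 9 other types its interval lay above 0. The difference between these types and the others was not tested, since each treatment has 1 immune library. Marker lists of myeloid cells went in both directions in both gates. In CD8 T cells the macrophage markers summed to 268 CPM (SCDi) and 428.2 CPM (vehicle), the monocyte markers to 161 and 193 CPM, the cDC2 markers to 8.62 and 19.7 CPM and the plasmacytoid dendritic cell markers to 43.9 and 56.7 CPM. In regulatory T cells the same lists summed to 287 and 295 CPM, 152 and 264 CPM, 0.748 and 39.5 CPM, and 27.7 and 69.5 CPM. All of these were lower with SCDi. Other lists were higher with SCDi. In CD8 T cells these were the microglia (42.2 and 27.8 CPM) and cDC1 markers (14.6 and 12.7 CPM). In regulatory T cells they were the microglia (22.4 and 17.6 CPM), migratory dendritic cell (161 and 109 CPM) and neutrophil markers (6.73 and 3.33 CPM). The C1q genes alone were at 145.6 CPM (SCDi) and 149.3 CPM (vehicle) in CD8 T cells and at 148.2 and 146.2 CPM in regulatory T cells. The part of such cells in the results was not tested.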

How the results depend on the processing

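No paired analysis was possible because each group has 1 library. The values below are log2 ratios of SCDi over vehicle. For the strongly positive share in tumour cells (-0.10), thinning to 2000 UMIs gave -0.29, thinning to 10000 UMIs 0.092, at least 3 core members 0.11 and all members 0.10. In macrophages (0.13), 2000 UMIs gave 0.29, 10000 UMIs 0.045, no thinning 0.033, at least 3 members 0.046, at least 8 members 0.28, at least 12 members 0.43 and all members 0.037. In microglia (-0.33), 2000 UMIs gave -0.0038, at least 8 members 0.16 and at least 12 members 0.51. The setting of 12 members was chosen after seeing the data. In migratory dendritic cells (0.32), 10000 UMIs gave 0.081. For the summed core level in tumour cells (-0.0073), the median of ratios gave 0.023, the mean over cells of their CPM -0.029, all members -0.12, no doublet removal 0.015, all barcodes 0.015, a stricter gate -0.026, cells that were not strongly positive 0.17 and cells without Mki67 or Top2a -0.076. In macrophages (0.33), the median of ratios gave 0.36, all members 0.30, a stricter gate 0.29 and cells not strongly positive 0.35. In monocytes (-8.5e-05), the mean per cell gave 0.017, all members 0.022, a stricter gate -0.049 and cells not strongly positive -0.22. In microglia (0.12), the mean per cell gave -0.24, all members 0.054, no doublet removal 0.087, all barcodes 0.086 and cells not strongly positive -0.55. In migratory dendritic cells (0.31), the median of ratios gave 0.35, all members 0.35, a stricter gate 0.15 and cells not strongly positive -0.059. Signs also turned in macrophages with monocyte markers under a stricter gate (-0.026), in cDC2 among cells not strongly positive (-0.067), in plasmacytoid dendritic cells with all members (-0.0022), in CD8 T cells with the mean per cell (0.21) and in regulatory T cells among cells not strongly positive (0.29). The split at strongly positive cells uses the members themselves, so its values are a description. The causes of these changes were not tested.

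The count of members past the fold changed by construction with the fold: beyond a log2 ratio of 0.32 it was 3 higher and 3 lower in tumour cells, and 13, 2, 7 and 19 higher in macrophages, monocytes, microglia and migratory dendritic cells. At that fold it was 0 lower in macrophages and in monocytes. At 2-fold it was 0 higher in tumour cells, macrophages, monocytes and microglia, and 3 in migratory dendritic cells. With no minimum UMIs it was 2 higher in tumour cells. No share over all genes was computed at these settings, so the counts have none to be set against. Depth limits single members in lymphocytes, where many ratios rest on few UMIs, and the share of strongly positive cells depends on the depth to which cells are thinned. Pools of 3 mice leave the spread between animals unmeasured.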

Other observations

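In tumour cells, the listed genes of the Ifi200 family, which lie together within chr1:173566283-174031810, were mostly higher with SCDi: 8 of 9 were higher, 5 of them past 1.5-fold, where 45.47% of all genes were higher and 4.71% past 1.5-fold. Beside Ifi213, these were Mndal (0.937 CPM with SCDi and 0.378 CPM with vehicle), Ifi203 (0.246 and 0.122 CPM), Ifi205 (0.253 and 0.137 CPM) and Ifi208 (0.147 and 0.0540 CPM), all 4 below 1 CPM. Ifi209 was the exception, at 1.97 CPM with SCDi and 2.13 CPM with vehicle, and the median log2 ratio of the genes of chromosome 1 was -0.03. This family was singled out after its values were seen. The leukocyte markers summed to 0.411 CPM with SCDi and 0.482 CPM with vehicle in the same cells, whose gate allowed at most 1 of them per cell. The macrophage markers, which that gate did not use, summed to 7.92 and 7.93 CPM. The part of leukocyte RNA in the result was not tested.

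The lambda interferon gene Ifnl3 had 17 UMIs in SCDi tumour cells and 1 in vehicle tumour cells, and Ifng had 64 UMIs in SCDi microglia and 2 in vehicle microglia. In the other types with at least 50 UMIs, Ifng had in macrophages 30 UMIs (SCDi) and 45 UMIs (vehicle), in CD4 T cells 72 and 433, in NK cells 173 and 270, and in CD8 T cells 248 and 75. Scaled to total UMIs, the log2 ratios of Ifng were 4.69 in microglia, -0.88 in macrophages, -1.13 in CD4 T cells, -0.27 in NK cells and 1.3 in CD8 T cells. The number of cells that held these UMIs was not counted, and Ifnl3 and Ifng were singled out after their values were seen.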
